A study of Mus musculus with 3 samples.

Results

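Epithelial junction and keratin genes are described here across 3 cell samples. The 36 genes were chosen by symbol, among 27537 gene labels on a whole mouse genome array: 15 tight junction genes, 7 desmosome genes, 4 keratins of simple epithelium and 10 regulators and surface genes of epithelial cells. They were read by 59 probes, each printed at 1 spot. Epcam was listed under its older name Tacstd1 and Esrp1 under Rbm35a. One array was run for each group. The p53-null group was mouse embryonic fibroblasts (MEF), the next was embryonic stem (ES) cells, and the last was MEF, given as p53 wt in the series' design. Each had a Nanog-GFP reporter, in which green fluorescent protein marks activity of the pluripotency gene Nanog, and no treatment is given. How p53 was removed, the number of embryos, the passage and any feeder cells under the ES cells are not given in the sources used here. The series concerns the part of p53 in making induced pluripotent stem cells from fibroblasts, and its design sets p53-null MEF against MEF and ES cells against MEF.

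Epithelial cells are joined by tight junctions, in which claudins and occludin seal the space between cells and are tied to actin by the ZO proteins and cingulin. Desmosomes hold cells together through desmogleins and desmocollins, which plakoglobin, plakophilins and desmoplakin link to keratin filaments. A fibroblast that is reprogrammed to pluripotency takes on an epithelial form early, and ES cells grow as joined colonies. Repressors of the Zeb and Snail families hold epithelial genes down in mesenchymal cells, while factors such as Grhl2 and Ovol1 act the other way.

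The 75th percentile of spot signal was 1039.96 units for p53-null MEF, 834 for ES cells and 829 for MEF, and each array was scaled on it. ES cells and MEF shared a slide, while p53-null MEF were read on a separate slide and scan, so slide and genotype cannot be told apart. Local background had a median of 44.0 units there and 27.0 units for ES cells and for MEF. As a check of the labels, the brighter Trp53 probe gave 56.3 units in p53-null MEF and 1304 in MEF, and the log2 difference was -4.87 ± 0.22. Its other probe gave 260.5 units in p53-null MEF and 572 in MEF, and neither is known to lie in the deleted part. The labelled cell types were checked on marker genes. All 9 pluripotent cell markers were well above background in ES cells, 2 in p53-null MEF and 4 in MEF. Their summed signal was 543 times the 75th percentile in ES cells, 0.32 in p53-null MEF and 0.92 in MEF. Pou5f1 and Nanog were well above background in ES cells alone, whereas Sox2 and Dppa5a were so on every array. All 10 fibroblast markers were well above background in both MEF, and 9 in ES cells, where Lum was dim. Their summed signal was 453 times the 75th percentile in p53-null MEF, 14.9 in ES cells and 666 in MEF. Such sums, here and below, are set mostly by the brightest genes of a list. For the pluripotent cell markers in ES cells these were Dppa5a and Zfp42, at 251767 and 132583 units.

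A gene is described by its brightest probe, in processed signal units of the scanner. A signal is called dim where the scanner software did not mark the spot as well above background, and a fold against a dim signal is a bound, written "at least". The ± values are the scanner's error model for the pair of spots, near 0.20 on the log2 scale for bright signals. They hold no biological spread, and with 1 array per group no test was possible. In such bulk RNA, fewer cells that express a gene and less RNA per cell cannot be told apart.

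ES cells had most of the 36 genes at a higher signal than MEF, with 24 higher by 2-fold or more, 4 lower by as much and 8 neither. Over the array, 32.7% of the gene labels with a value passed 2-fold on the higher side in ES cells and 27.1% on the lower side. The members' median log2 difference was 2.61, against 0.20 over all labels. Both medians count bounds at their value, which were 16 of the 36 member values and 3860 of 18745 over all labels. Of the 24 higher members, 13 were bounds. All 10 regulators were higher, as were 9 of 15 tight junction genes and 3 of 7 desmosome genes, whereas the keratins were split, with Krt8 and Krt18 higher and Krt7 and Krt19 lower. In p53-null MEF against MEF, 6 members were higher by 2-fold or more and 4 lower among 25 with a value, beside 18.6% and 16.6% of all labels. These shares lie close to the array's own, and both comparisons use the same MEF array. The members' median there was 0.24, against 0.03 over all labels.

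**Figure D1:**
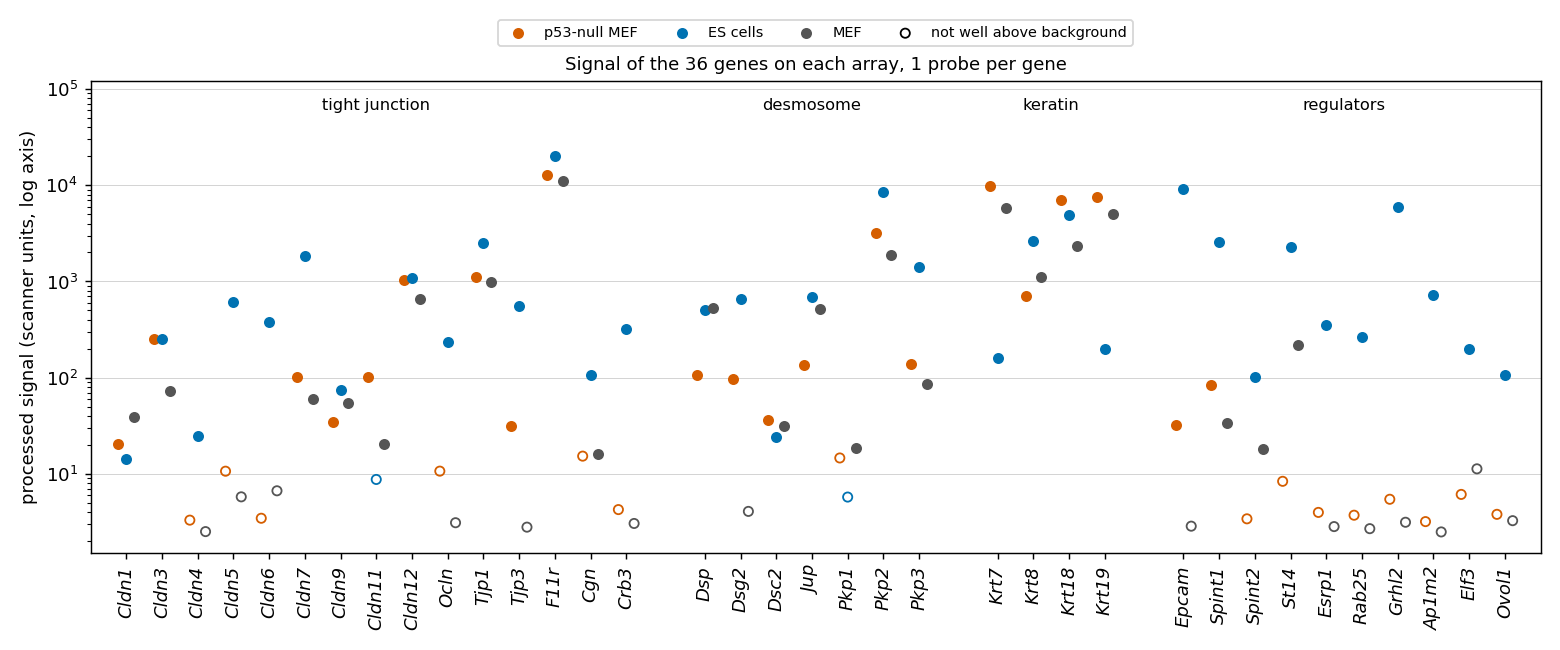
Processed signal of each of the 36 genes in scanner units on a log axis, 1 probe per gene, with p53-null MEF, ES cells and MEF from left to right and open circles where the spot was not well above background. Of the 36 genes, 21 were well above background in p53-null MEF, 34 in ES cells and 22 in MEF, and the signals of different genes come from different probes and are not comparable in height. Of all 43379 spots, 26198 were well above background for p53-null MEF, 27954 for ES cells and 26462 for MEF.

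Detection differed between the arrays. Of the 36 members, 11 were well above background in ES cells but in neither fibroblast, beside 9.17% of the 19155 gene labels that were well above it on at least 1 array: Cldn4, Cldn5, Cldn6, Ocln, Crb3, Esrp1, Rab25, Grhl2, Ap1m2, Elf3 and Ovol1. Another 17 were well above background on all 3 arrays, a class that was not counted over all labels. Tjp3, Dsg2 and Epcam passed in p53-null MEF and ES cells, Cgn, Spint2 and St14 in ES cells and MEF, Cldn11 in both fibroblasts, and Pkp1 in MEF alone. The scaled signal was highest in ES cells for 28 members and for 45.9% of those labels. It was highest in p53-null MEF for Cldn11, Krt7, Krt18 and Krt19, and in MEF for Cldn1, Dsp, Dsc2 and Pkp1.

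The sequences below are what the array read and what lies upstream of members that were high in ES cells. Each probe is a stretch of 60 bases matching the transcript. Those of Epcam, which had the largest bound of all members, and Cldn7, which had the largest measured difference among the claudins, are shown, also because each spans more genome than its own length and so crosses an intron. The Epcam probe lies at chr17:87557958-87558786 and the Cldn7 probe at chr11:69783473-69783782, both on the plus strand of build mm8.
Epcam probe: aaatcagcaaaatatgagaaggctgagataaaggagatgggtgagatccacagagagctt
Cldn7 probe: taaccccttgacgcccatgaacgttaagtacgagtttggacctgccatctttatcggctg

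Upstream sequences came from RefSeq (build GRCm38.p6), which held 25 of the 36 members. Not in the table were Cldn9, Dsc2, Dsg2, Esrp1, Grhl2, Krt19, Ovol1, Pkp1, Pkp2, Pkp3 and St14. The 250 bases before the start of transcription were searched on both strands for the E-box CACCTG, read as CAGGTG on the opposite strand, to which Zeb and Snail repressors are known to bind. It was found in 15 of 25 members and in 5252 of 27025 genes of the table (19.4%). Some genes had more than 1 start, and a gene counted if any of its windows held the E-box. Cldn7 and Ocln each had a window with it and another without. In the 300-base window that includes 50 bases after the start, a window chosen after seeing the data, the counts were 17 of 25 members (68.0%) and 22.6% of genes. At least 3 copies stood before Crb3, Spint2 and Ap1m2, as before 0.289% of all genes. Among members past 2-fold on the higher side in ES cells 12 of 17 held the E-box, and among the other members 3 of 8, namely Cldn4, F11r and Krt7. The Grhl motif AACCGGTT was in none of the 25 windows and in 37 of all genes (0.137%).

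The upstream windows of Ap1m2, Crb3, Rab25 and Epcam are shown as examples with more than 1 E-box, from genes that were dim in MEF. That of Krt7 is shown as a gene that was lower in ES cells and holds 1, and that of Spint1 as a gene far higher in ES cells that holds none. They run 5′ to 3′ and end at the base before the start of transcription, with E-boxes in capitals. The windows lie at chr9:21312334-21312583 (minus strand) for Ap1m2, chr17:57061951-57062200 (plus) for Crb3 and chr3:88548280-88548529 (minus) for Rab25. Those of the others lie at chr17:87635729-87635978 (plus) for Epcam, chr15:101412153-101412402 (plus) for Krt7 and chr2:119237110-119237359 (plus) for Spint1.
Ap1m2: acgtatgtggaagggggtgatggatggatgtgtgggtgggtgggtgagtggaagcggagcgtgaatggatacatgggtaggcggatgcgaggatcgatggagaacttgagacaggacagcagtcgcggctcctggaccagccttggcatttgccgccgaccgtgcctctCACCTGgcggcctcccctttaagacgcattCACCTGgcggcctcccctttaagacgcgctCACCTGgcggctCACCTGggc
Crb3: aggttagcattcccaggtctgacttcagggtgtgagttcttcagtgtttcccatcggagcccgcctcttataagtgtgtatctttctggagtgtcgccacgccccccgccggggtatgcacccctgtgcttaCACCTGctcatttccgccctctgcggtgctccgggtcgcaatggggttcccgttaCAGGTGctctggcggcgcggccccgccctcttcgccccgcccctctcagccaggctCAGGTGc
Rab25: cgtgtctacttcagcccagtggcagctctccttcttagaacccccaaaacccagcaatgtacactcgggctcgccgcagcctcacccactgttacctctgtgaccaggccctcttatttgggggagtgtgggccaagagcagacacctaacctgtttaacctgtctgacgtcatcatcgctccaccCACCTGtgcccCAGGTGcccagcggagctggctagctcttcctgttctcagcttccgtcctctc
Epcam: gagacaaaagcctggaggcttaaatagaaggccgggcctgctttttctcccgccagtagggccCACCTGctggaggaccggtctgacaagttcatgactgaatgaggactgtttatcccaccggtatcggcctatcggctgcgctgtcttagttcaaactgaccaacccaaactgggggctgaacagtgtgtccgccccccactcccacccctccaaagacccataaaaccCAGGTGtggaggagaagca
Krt7: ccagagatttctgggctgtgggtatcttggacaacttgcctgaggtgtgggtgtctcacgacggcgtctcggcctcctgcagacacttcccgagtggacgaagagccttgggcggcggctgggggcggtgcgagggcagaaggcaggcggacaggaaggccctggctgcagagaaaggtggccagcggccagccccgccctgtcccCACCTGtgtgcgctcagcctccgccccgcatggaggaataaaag
Spint1: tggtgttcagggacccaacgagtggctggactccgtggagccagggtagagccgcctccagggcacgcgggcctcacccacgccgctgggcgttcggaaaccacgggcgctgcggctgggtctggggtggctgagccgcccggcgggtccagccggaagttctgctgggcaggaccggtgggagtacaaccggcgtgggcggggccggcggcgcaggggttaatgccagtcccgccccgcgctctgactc

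In Ap1m2 the 4 E-boxes begin at bases -81, -51, -21 and -9 from the start, with the first 3 spaced evenly inside a repeated stretch. Those of Crb3 begin at -118, -63 and -7 in the window shown, and at -148, -93 and -37 from a second start. Those of Rab25 begin at -64 and -53. Epcam holds its pair at -187 and -19, and Krt7 its E-box at -44. The window of Spint1 has 26 CpG dinucleotides and no E-box. A match gives letters only, and binding was not measured.

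Tight junction genes were the largest group, with 9 of 15 at least 2-fold higher in ES cells than in MEF and a median log2 difference of 1.77. Cldn7, a claudin of many epithelia, gave 1856 units in ES cells, 102 in p53-null MEF and 60.5 in MEF. It was measured on every array and was 30.5-fold higher in ES cells than in MEF (4.93 ± 0.22 on the log2 scale). Cldn6, a claudin of embryonic epithelia, gave 383 units in ES cells and dim signals of 3.47 in p53-null MEF and 6.70 in MEF, which makes it at least 30.8-fold higher. Cldn5, best known as the claudin of blood vessel endothelium, gave 615 units in ES cells and dim signals of 10.7 in p53-null MEF and 5.79 in MEF, at least 49.4-fold higher. Beside Cldn5, 8 of 10 endothelium markers were well above background in ES cells, 7 in p53-null MEF and 8 in MEF, with a summed signal of 6.41 times the 75th percentile in ES cells, 3.25 in p53-null MEF and 2.45 in MEF. Of the 9 with a value, 4 passed 2-fold on the higher side in ES cells against MEF and 1 on the lower, with a median of -0.37. Vwf was 19.2-fold, Esam 12-fold and Egfl7 3.98-fold higher, and Pecam1, dim at its second probe on all 3 arrays, at least 10.7-fold. Emcn was at least 8.98-fold lower. Cdh5, a defining marker of endothelium, was dim on all 3 arrays. Their part in the Cldn5 signal was not tested.

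Occludin and the proteins at the inner face of the junction were also higher in ES cells. Ocln gave 232 units in ES cells and dim signals of 10.7 in p53-null MEF and 3.12 in MEF, at least 18.7-fold higher, while its second probe was dim on all 3 arrays. Tjp3, which encodes the scaffold ZO-3, gave 552 units in ES cells, 31.4 in p53-null MEF and a dim 2.81 in MEF, at least 44.4-fold higher in ES cells. Crb3, the polarity protein that marks the apical side of epithelial cells, gave 321 units in ES cells and dim signals of 4.27 in p53-null MEF and 3.06 in MEF, at least 25.8-fold higher. Cgn, which encodes cingulin, gave 107 units in ES cells, a dim 15.3 in p53-null MEF and 16.1 in MEF. It was 6.62-fold higher in ES cells than in MEF (2.73 ± 0.32 on the log2 scale), and its other probes gave bounds of 3.05 and 1.89.

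Tjp1, F11r and Cldn12, well above background on all 3 arrays, differed less. Tjp1, which encodes ZO-1, gave 2492 units in ES cells, 1119.6 in p53-null MEF and 981 in MEF, 2.52-fold higher in ES cells, and its second probe gave 2.41-fold. F11r, the junctional adhesion molecule JAM-A, gave 20206 units in ES cells, 12826 in p53-null MEF and 10981 in MEF, a difference of 0.87 ± 0.20. Cldn12, a claudin expressed in many tissues, gave 1097 units in ES cells, 1035 in p53-null MEF and 656 in MEF, a difference of 0.73 ± 0.20 between ES cells and MEF. Neither F11r nor Cldn12 reached 2-fold. Cldn3, another epithelial claudin, gave 253 units in ES cells, 252 in p53-null MEF and 73.6 in MEF, 3.42-fold higher in ES cells than in MEF.

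Cldn6 and its neighbour Cldn9 differed by unequal amounts between ES cells and MEF. They have no coding gene between them on chromosome 17, yet Cldn9 gave 75.4 units in ES cells, 35.1 in p53-null MEF and 54.3 in MEF, a difference of 0.47 ± 0.22 between ES cells and MEF. Cldn3 and Cldn4 are likewise next to each other on chromosome 5. Cldn4, a claudin that tightens many epithelia, gave 24.6 units in ES cells and dim signals of 3.32 in p53-null MEF and 2.52 in MEF. Its bound of at least 1.98-fold did not reach the threshold, because the faintest signals marked as detected on the MEF array were near 12.4 units.

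Cldn1 and Cldn11 were the tight junction genes that were lower in ES cells. Cldn11, which builds the tight junctions of oligodendrocytes and Sertoli cells, gave a dim 8.78 units in ES cells, 103 in p53-null MEF and 20.7 in MEF, at least 2.07-fold lower in ES cells than in MEF. Cldn1, the main barrier claudin of the skin, gave 14.3 units in ES cells, 20.4 in p53-null MEF and 38.7 in MEF, 2.72-fold lower in ES cells (-1.44 ± 0.33), while its second probe gave bounds. All 3 of its signals were faint, and with normexp background correction Cldn1 and Cldn11 no longer differed by 2-fold.

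**Figure D2:**
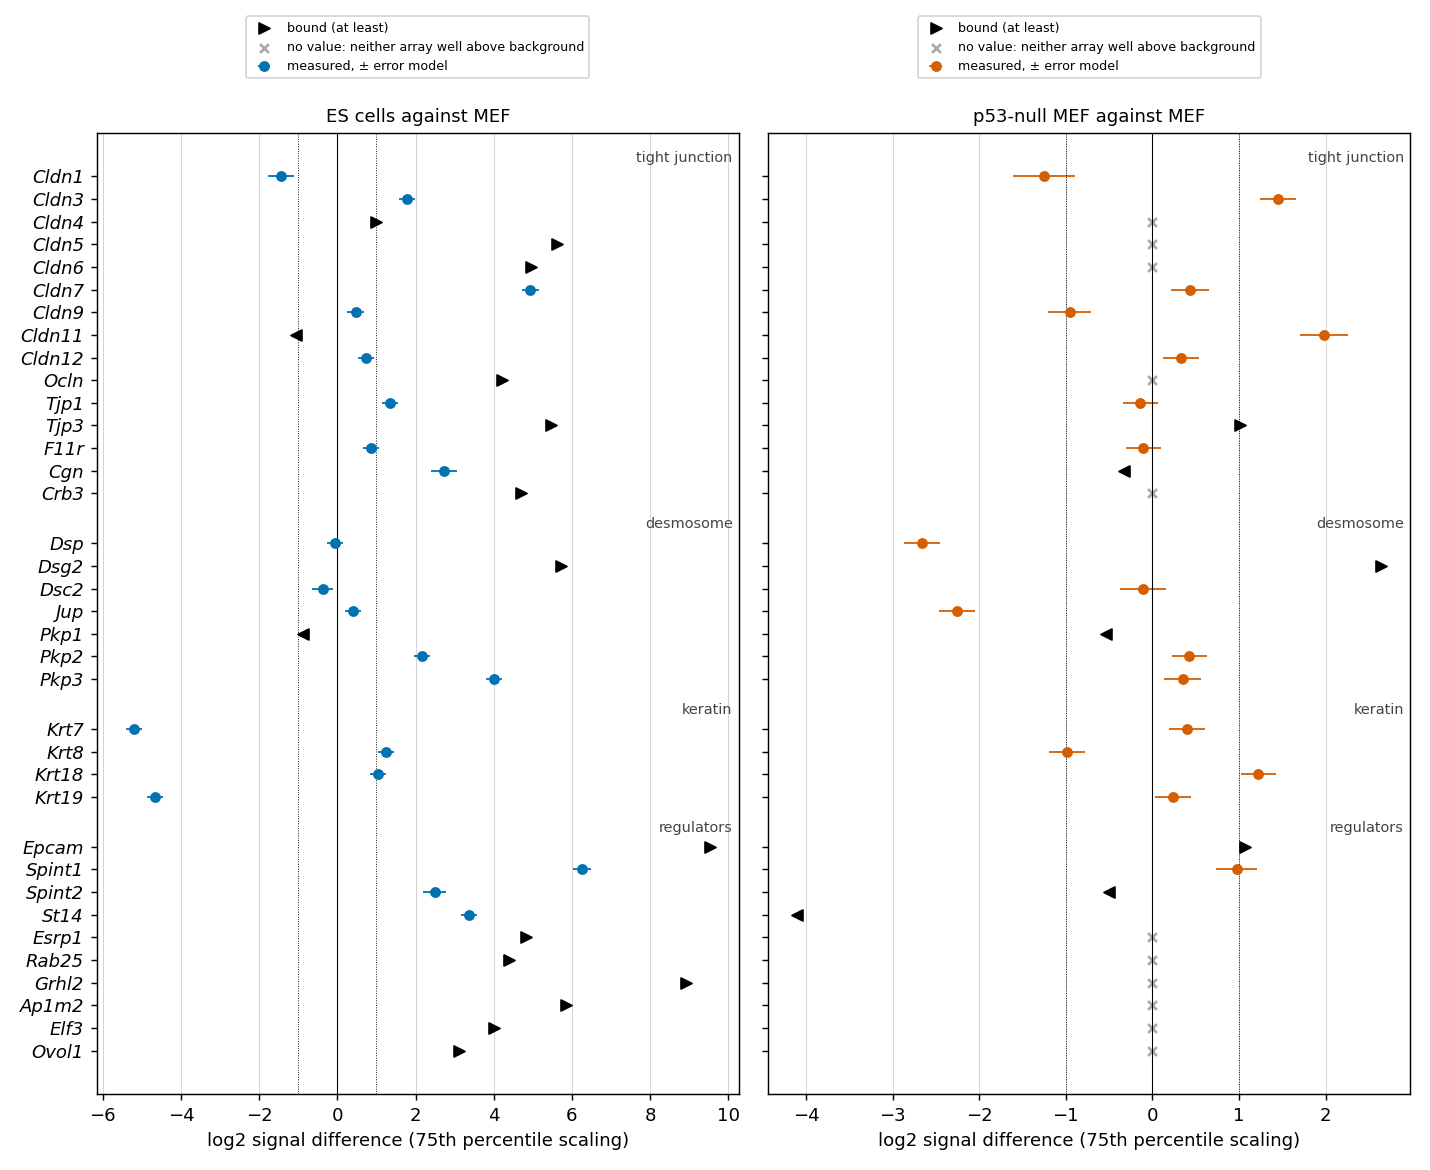
Log2 signal difference of each member, ES cells against MEF on the left and p53-null MEF against MEF on the right, after 75th percentile scaling, with circles and error model bars for measured differences, triangles for bounds pointing away from 0, and crosses at 0 for genes dim on both arrays. Dotted lines mark 2-fold: 24 members lie at or beyond it on the higher side in ES cells, while most values of p53-null MEF lie between the lines.

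Against MEF, 3 of 7 desmosome genes passed 2-fold on the higher side in ES cells and none on the lower side, with a median log2 difference of 0.41. Dsg2, the desmoglein of simple epithelia and heart, gave 659 units in ES cells, 97.0 in p53-null MEF and a dim 4.09 in MEF, at least 53-fold higher in ES cells than in MEF. Its other probes gave smaller bounds of 1.5 to 1.93 on the log2 scale, except 1 that was dim throughout. Pkp3, a plakophilin of epithelia, gave 1403 units in ES cells, 139 in p53-null MEF and 86.9 in MEF, 16-fold higher (4.0 ± 0.21). Pkp2, the plakophilin of simple epithelia and heart, gave 8562 units in ES cells, 3175 in p53-null MEF and 1884 in MEF, 4.52-fold higher.

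Dsp, Jup and Dsc2 differed by less than 2-fold between ES cells and MEF. Desmoplakin, encoded by Dsp, gave 509 units in ES cells, 106 in p53-null MEF and 531 in MEF, a difference of -0.07 ± 0.20 between ES cells and MEF. Plakoglobin, encoded by Jup and shared by desmosomes and adherens junctions, gave 691 units in ES cells, 136 in p53-null MEF and 518 in MEF, a difference of 0.41 ± 0.20. For both genes p53-null MEF was the low array, while ES cells and MEF lay near each other. Dsc2, a desmocollin, gave 24.4 units in ES cells, 36.7 in p53-null MEF and 31.4 in MEF. Pkp1, a plakophilin of stratified epithelia, gave dim signals of 5.76 in ES cells and 14.7 in p53-null MEF, and 18.6 units in MEF. It was at least 1.85-fold lower in ES cells than in MEF, a bound that passed 2-fold with median scaling, with quantile normalization and with no filter on dim probes.

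The 4 keratins were well above background on every array, fibroblasts included, and went opposite ways in ES cells. Krt8 and Krt18, which pair into the first keratin filaments of the embryo, were higher in ES cells than in MEF. Krt8 gave 2654 units in ES cells, 709.6 in p53-null MEF and 1122 in MEF, 2.35-fold higher in ES cells, and its second probe gave 2.21-fold. Krt18, its neighbour on chromosome 15 with no coding gene between, gave 4886 units in ES cells, 6939 in p53-null MEF and 2364 in MEF, 2.05-fold higher in ES cells (1.04 ± 0.20). That value sat at the threshold, and with median scaling or normexp correction it fell short of 2-fold.

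Krt7 and Krt19, keratins of ducts, glands and mesothelium, were the 2 members farthest below MEF in ES cells. Krt7 gave 159.9 units in ES cells, 9703 in p53-null MEF and 5862 in MEF, 36.9-fold lower in ES cells than in MEF (-5.21 ± 0.21). That probe lies at chr15:101255775-101255834 of mm8. Its second probe gave a difference of -4.93. Krt19 gave 199.9 units in ES cells, 7499 in p53-null MEF and 5069 in MEF, 25.5-fold lower in ES cells (-4.67 ± 0.20). Both fibroblast arrays were bright for both genes and the ES cell array was faint.

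Markers of mesothelium, the epithelial lining of the body cavities, were also lower in ES cells than in MEF, 7 of 8 by at least 2-fold, while Wt1 was higher. Of the 8, 8 were well above background in p53-null MEF, 6 in ES cells and 8 in MEF, with a summed signal of 10.2 times the 75th percentile in p53-null MEF, 3.63 in ES cells and 29.1 in MEF. Upk1b and Muc16 were dim in ES cells. Msln, which encodes mesothelin, gave 7075 units in p53-null MEF, 2025 in ES cells and 18266 in MEF. Of 7 epidermis markers on the array, 4 were well above background in p53-null MEF, 3 in ES cells and 5 in MEF, with a summed signal of 2.24 in p53-null MEF, 1.41 in ES cells and 2.04 in MEF. Most of that sum came from Krt10, with 2226 units in p53-null MEF, 1089.9 in ES cells and 1100.5 in MEF. Of the 6 with a value in ES cells against MEF, 4 passed 2-fold on the lower side and none on the higher. With normexp correction 2 of the 6 did so. The 4 were Krt5, Krt14, Krt15 and Trp63, each brightest in MEF. Krt14 gave 416 units in MEF and 26.9 in p53-null MEF, and Trp63 gave 78.6 in MEF and 24.1 in p53-null MEF. Ivl was dim on every array and Krt5 well above background in MEF alone, at 28.6 units. The part of mesothelial or epidermal cells in the keratin signals was not tested.

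**Figure D3:**
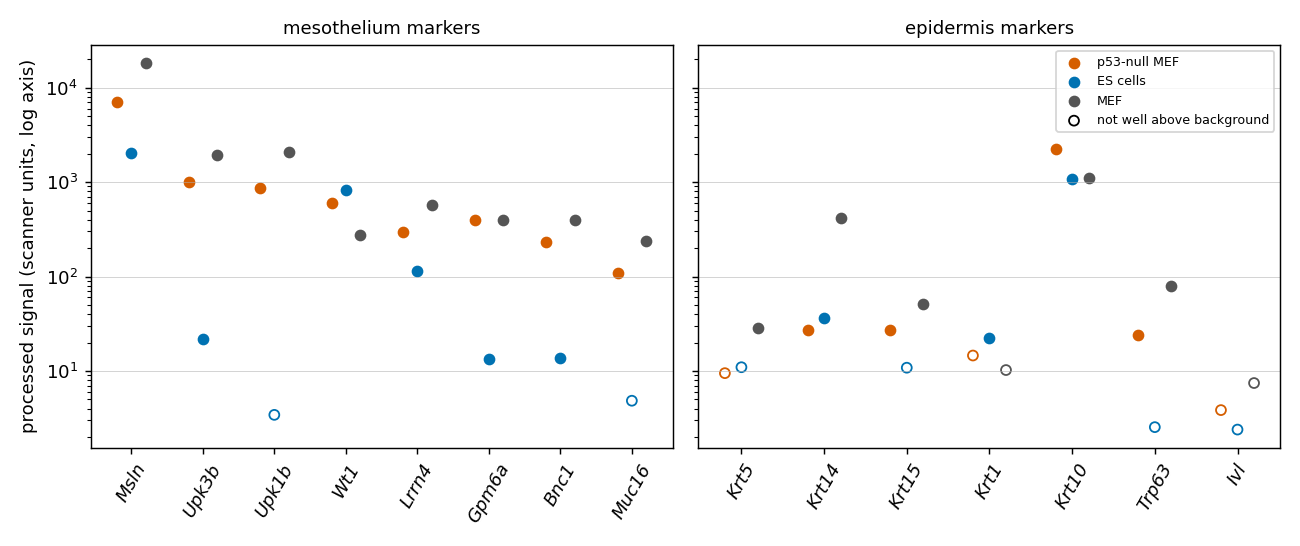
Processed signal, in scanner units on a log axis, of the mesothelium markers (left) and the epidermis markers found on the array (right) in p53-null MEF, ES cells and MEF, with open circles where the spot was not well above background. The mesothelium markers were well above background in both fibroblast samples, 8 of 8 in each, and Msln gave 7075 units in p53-null MEF and 18266 in MEF.

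All 10 regulators and surface genes passed 2-fold on the higher side in ES cells against MEF, with a median log2 difference of 4.62 that counts bounds at their value. Epcam, an adhesion molecule on the surface of simple epithelia and ES cells, had the largest bound of the 36 genes. It gave 9202 units in ES cells, 32.6 in p53-null MEF and a dim 2.87 in MEF, at least 739.6-fold higher in ES cells than in MEF. Grhl2, a transcription factor that activates epithelial genes, gave 5968 units in ES cells and dim signals of 5.47 in p53-null MEF and 3.16 in MEF, at least 479.6-fold higher at a probe at chr15:37307958-37308017 of mm8. Its other probes gave bounds of 3.40 and 1.39 on the log2 scale. Elf3, an epithelial factor of the Ets family, gave 200.3 units in ES cells and dim signals of 6.14 in p53-null MEF and 11.3 in MEF, at least 16.1-fold higher. Ovol1, a zinc finger repressor of epithelial lineages, gave 108 units in ES cells and dim signals of 3.81 in p53-null MEF and 3.28 in MEF, at least 8.68-fold higher. Its second probe gave 23.4 units in ES cells and a bound of at least 1.88-fold, short of 2-fold. All 3 of these transcription factors were dim in both fibroblasts.

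Genes that act on splicing and membrane traffic in epithelial cells had the same pattern of a clear signal in ES cells and dim spots in both fibroblasts. Esrp1, which directs epithelial splicing, gave 354 units in ES cells, with dim signals of 3.99 in p53-null MEF and 2.84 in MEF, at least 28.5-fold higher. Rab25, a small GTPase of apical recycling, gave 263 units in ES cells, with dim signals of 3.73 in p53-null MEF and 2.71 in MEF, at least 21.1-fold higher. Ap1m2, the epithelial subunit of a clathrin adaptor that sorts proteins to the basolateral membrane, gave 719 units in ES cells, with dim signals of 3.20 in p53-null MEF and 2.50 in MEF, at least 57.8-fold higher. The second probes of Esrp1 and Ap1m2 were dim on all 3 arrays.

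The membrane protease matriptase and its inhibitors were measured in fibroblasts too. St14, which encodes matriptase, gave 2284 units in ES cells, a dim 8.40 in p53-null MEF and 219 in MEF, 10.4-fold higher in ES cells than in MEF (3.37 ± 0.20). Spint1, which encodes its inhibitor HAI-1, gave 2587 units in ES cells, 83.5 in p53-null MEF and 33.9 in MEF, 76.0-fold higher (6.25 ± 0.23), and its second probe gave at least 61.5-fold. Spint2, which encodes the related inhibitor HAI-2, gave 102 units in ES cells, a dim 3.43 in p53-null MEF and 18.1 in MEF, 5.62-fold higher, though under 2-fold with normexp correction. Protease and inhibitors were thus all highest in ES cells. Between the fibroblasts St14 and Spint1 differed in opposite directions, each at 1 of 2 probes, and Spint1 by less than 2-fold.

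Markers of other lineages that ES cell cultures may hold were also read. Of 10 endoderm markers, 7 were well above background in p53-null MEF, 8 in ES cells and 6 in MEF, with a summed signal of 5.87 times the 75th percentile in p53-null MEF, 1.08 in ES cells and 6.36 in MEF. Of the 8 with a value in ES cells against MEF, 3 passed 2-fold on the higher side and 3 on the lower, beside 32.7% and 27.1% of all labels. Foxa2 was 4.54-fold, Sox17 at least 4.57-fold and Amn 3.72-fold higher, though some Sox17 probes were dim on all 3 arrays. Dab2 was 26.9-fold, Gata6 14.3-fold and Cubn 6.16-fold lower. Gata4 and Ttr were dim on all 3 arrays. Of 8 trophoblast markers, 2 were well above background in p53-null MEF, 6 in ES cells and 2 in MEF, with a summed signal of 0.296 in p53-null MEF, 0.353 in ES cells and 0.163 in MEF. Of the 6 with a value in ES cells against MEF, 3 passed 2-fold on the higher side and 1 on the lower. Cdx2, Hand1 and Gcm1 were well above background in ES cells alone, at 71.2, 38.5 and 20.7 units. Cdx2 and Hand1 passed 2-fold, while the bound of Gcm1 was at least 1.66-fold. Eomes was at least 8.98-fold higher in ES cells than in MEF, with 111.7 units in ES cells and 137.7 in p53-null MEF. Prl3d1 was 4.79-fold lower, with 18.9 units in ES cells and 90.1 in MEF. The part of such cells in the ES cell values was not tested.

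The p53-null MEF array was also set against the MEF array, which was on another slide, so effects of p53 loss and of the slide cannot be told apart. Of the 36 members, 11 were dim on both arrays and had no value, including 6 of the 10 regulators. The desmosome plaque genes Dsp and Jup, the claudin gene Cldn1 and the protease gene St14 were lower in p53-null MEF by 2-fold or more. Those higher by 2-fold or more were Cldn3, Cldn11, Tjp3, Dsg2, Krt18 and Epcam. The scaling matters here: with spike-in RNA in place of the 75th percentile, the median over all labels moved to 2.01, and the members' median to 2.22. The directions below are relative to the 75th percentile.

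Dsp, with 106 units in p53-null MEF and 531 in MEF, was 6.31-fold lower (-2.66 ± 0.21) at a probe at chr13:38205718-38205777 of mm8. Its second bright probe gave 48.6 units in p53-null MEF and 319 in MEF, 8.24-fold lower, and its other probes were dim on all 3 arrays. Jup, with 136 units in p53-null MEF and 518 in MEF, was 4.76-fold lower (-2.25 ± 0.21). With spike-in scaling the differences were -0.68 for Dsp and -0.27 for Jup, both short of 2-fold. Among the other desmosome genes, Pkp1 was at least 1.45-fold lower, with a dim 14.7 units in p53-null MEF and 18.6 in MEF. Pkp2 and Pkp3 differed by 0.43 ± 0.20 and 0.35 ± 0.21, Dsc2 by -0.11 ± 0.27, and Dsg2 was at least 6.25-fold higher, with 97.0 units in p53-null MEF and a dim 4.09 in MEF. That last value rests on 1 of the 5 Dsg2 probes, since the others were dim in both fibroblasts, and the mean over its probes lost the 2-fold difference. Mesothelium markers, given above, were also lower in p53-null MEF, 6 of 8 by at least 2-fold with a median of -1.28, as were 4 of the 5 epidermis markers with a value, with a median of -1.27. Those medians were 0.70 and 0.00 with spike-in scaling. Their part in the Dsp and Jup values was not tested.

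St14 gave a dim 8.40 units in p53-null MEF and 219 in MEF, at least 17.2-fold lower, the largest difference of any member in this comparison, at a probe at chr9:30839229-30839288 of mm8. That value rests on 1 of 2 probes, since the other was dim in both fibroblasts, at 3.94 in p53-null MEF and 7.02 in MEF. St14 was the only member past 2-fold on the lower side with spike-in scaling, at -2.12 on the log2 scale. Cldn1, with 20.4 units in p53-null MEF and 38.7 in MEF, was 2.38-fold lower (-1.25 ± 0.36), and it had a difference of 0.73 in the opposite direction with spike-in scaling. Spint1 gave 83.5 units in p53-null MEF and 33.9 in MEF, 1.97-fold higher (0.97 ± 0.24), while its second probe was dim in both fibroblasts. Spint2 gave a dim 3.43 in p53-null MEF and 18.1 units in MEF, at least 1.42-fold lower.

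Among claudins, Cldn11 gave 103 units in p53-null MEF and 20.7 in MEF, 3.96-fold higher (1.98 ± 0.28). Cldn3 gave 252 units in p53-null MEF and 73.6 in MEF, 2.73-fold higher (1.45 ± 0.21). With normexp correction neither reached 2-fold. Cldn9 gave 35.1 units in p53-null MEF and 54.3 in MEF, 1.94-fold lower (-0.96 ± 0.25). The widely expressed Cldn12, Tjp1 and F11r differed by 0.33 ± 0.20, -0.14 ± 0.20 and -0.10 ± 0.20 on the log2 scale, within or near the error of a pair of spots.

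The filament partners Krt8 and Krt18 lay on opposite sides of the median gene label between the fibroblasts. Krt18 gave 6939 units in p53-null MEF and 2364 in MEF, 2.34-fold higher (1.23 ± 0.20). Krt8 gave 709.6 units in p53-null MEF and 1122 in MEF, 1.98-fold lower (-0.99 ± 0.20), and its second probe 2.01-fold lower. Spike-in scaling moves all differences measured on both arrays by the same amount and so keeps their order. With it, Krt18 differed by 3.20 and Krt8 by 0.99. Krt7 and Krt19, bright in both fibroblasts, differed by 0.40 ± 0.20 and 0.24 ± 0.20. The mesothelium markers ran between -1.70 for Msln and 0.80 for Wt1 in the same comparison. Epcam and Tjp3 were faint in p53-null MEF, at 32.6 and 31.4 units, and dim in MEF, which gave bounds of at least 2.10-fold and 2.02-fold that normexp correction removed.

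**Figure D4:**
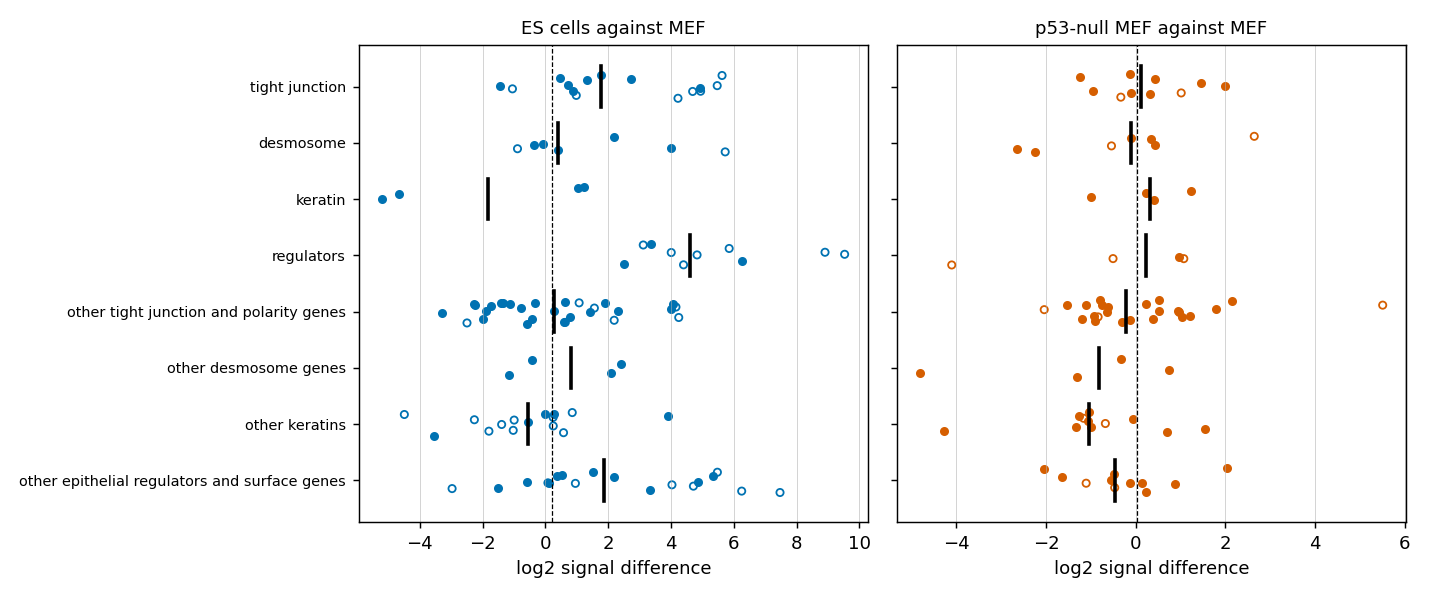
Log2 signal difference of each gene with a value in the 4 groups of members and in the 4 lists of other epithelial genes, after 75th percentile scaling, ES cells against MEF on the left and p53-null MEF against MEF on the right, with open circles for bounds, thick bars for list medians and a dashed line for the median of all gene labels. In ES cells the regulators had a median of 4.62 and the other keratins one of -0.54.

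Other genes of the same structures, listed by name, were more evenly divided. Of 93 listed, 88 were on the array and 66 had a value in ES cells against MEF. By 2-fold or more, 23 were higher (34.8%) and 19 lower (28.8%), with a median of 0.28. These shares lie close to the 32.7% and 27.1% of all labels, whose median was 0.20. Among other tight junction and polarity genes 10 of 29 were higher and 10 lower, and among other keratins 1 of 15 was higher and 6 were lower. Other epithelial regulators and surface genes stood closer to the members, with 10 of 18 higher, 2 lower and a median of 1.85. Those with the largest bounds were Tfap2c, a factor of trophoblast and germ cells, at least 177.6-fold higher, and Grhl1, a relative of Grhl2, at least 76.2-fold higher. Ovol2, a zinc finger relative of Ovol1, was at least 44.6-fold higher, and Arhgef16, a guanine nucleotide exchange factor, was 40.2-fold higher. The largest on the lower side were Krt20 at least 22.5-fold, Krt14 11.6-fold, Cldn15 9.81-fold, Trp63 at least 7.84-fold and Cldn10 at least 5.64-fold lower in ES cells. The Trp63 value rests on 1 of 3 probes, the others being dim on all 3 arrays, and the mean over its probes lost the 2-fold difference. Cldn10 stood at -0.79 with normexp correction, short of 2-fold.

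In p53-null MEF against MEF, 50 of these other genes had a value, with 7 higher (14.0%) and 16 lower (32.0%) by 2-fold or more. Over all labels those shares were 18.6% and 16.6%. The median of these other genes was -0.52, against 0.03 over all labels. Other keratins held 7 of the 16 and had a median of -1.05, which was 0.91 with spike-in scaling. The epidermis markers with a value in either comparison are all among the other epithelial genes, so those counts overlap. Perp, a desmosome protein that p53 is known to activate, gave 622 units in p53-null MEF and 13926 in MEF, 28.1-fold lower (-4.81 ± 0.20). Krt14, the keratin of basal cells in stratified epithelium, gave 26.9 units in p53-null MEF and 416 in MEF, 19.4-fold lower, and Trp63, a relative of p53 that marks those basal cells, gave 24.1 units in p53-null MEF and 78.6 in MEF, 4.10-fold lower. Perp and Krt14 were lower with spike-in scaling too, at -2.83 and -2.30, while Trp63 stood at -0.06 and Erbb3, listed next, at 0.33. Marveld3 was at least 4.11-fold lower at 1 probe and dim on both arrays at the other, with a mean over probes of -0.02 on the log2 scale, and Erbb3 was 3.14-fold lower at 1 of 5 probes, with a mean over its probes of 0.16 on the log2 scale. Trp63 likewise rests on 1 of 3 probes, with a mean of -0.65.

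On the higher side, Cxadr, an adhesion molecule of tight junctions and the receptor of coxsackie and adenoviruses, gave 707 units in p53-null MEF and a dim 12.1 in MEF, at least 45.5-fold higher. Its other probes gave smaller differences of 1.43, a bound, and 0.70 on the log2 scale. Ildr2 was 4.44-fold higher at 1 of 2 probes, the other being dim on all 3 arrays. Cd24a, a surface glycoprotein of immature cells, gave 22443 units in p53-null MEF and 4326 in MEF, 4.13-fold higher. Lsr, a protein of tricellular contacts, was 3.49-fold higher in p53-null MEF and 16.7-fold higher in ES cells, both against the same MEF array. Krt80 was 2.90-fold higher in p53-null MEF, though under 2-fold with normexp correction. With spike-in scaling 31 of these other genes passed 2-fold on the higher side in p53-null MEF and 2 on the lower side.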

How the data were processed

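Total RNA of 3 samples, 1 array per group, was labelled with Cy3 and read on 1-colour Agilent arrays. The deposited scanner files hold linear spot intensities made by the authors with Feature Extraction 9.5.3.1, and per the file headers the processed signal has background subtracted and spatial trends removed. The authors' value table held the same intensities (ratios of 0.995 to 1.005), so it is neither logged nor centred and has no direction. Its column medians were 51.8 for p53-null MEF, 50.0 for ES cells and 43.2 for MEF.

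The 1639 control spots and spots marked uneven or outlying (62 for p53-null MEF, 176 for ES cells, 192 for MEF) were left out, and no spot was saturated. Log2 processed signals were scaled on the 75th percentile of 43379 spots. A probe passed the background mark if 50% or more of its spots had it. The probe with the highest mean stood for a gene. Where 1 array was dim, the other was compared with the dim signal or, if larger, with the faintest signal that carried the mark there, which was 16 units for p53-null MEF, 10.9 for ES cells and 12.4 for MEF. A bound that would cross 0 was set to 0. Differences of at least 2-fold were counted, bounds included. Members were matched by the gene name in the files or a synonym. Other probes were named through RefSeq (GRCm38.p6), 24375 by accession, 6301 by symbol and 2426 by synonym, while 8072 kept the name in the files. Probe positions are on mm8, per the p53-null MEF file; their place in exons was not determined.

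The number of arrays limits the precision: without replicates no test, p-value or biological error could be given. The error model sets 10% per bright signal. The members, lists and named-gene rule (every member, the up to 5 largest differences in each direction among other listed genes, the brightest and defining markers) were chosen with earlier results of these data known; 1 gene the rule names is not reported here. The difference code was tested on simulated data. Tools were Python 3.11.15, pandas 2.3.3, R 4.3.3 and limma 3.58.1, the last for normexp (offset 50) and quantile normalization. The 8 alternatives tried are reported at the end.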

Additional observations from a re-analysis of the deposited data

How the results depend on the processing

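No paired analysis was possible because each group had 1 array. The 8 alternatives were run, and the cause of the changes was not tested beyond what each alternative does by construction. In ES cells against MEF the members' median log2 difference was 2.61, and it became 1.29 with normexp correction, 2.39 with median scaling, 2.84 with spike-in scaling, 3.0 with no filter on dim probes and 1.75 as a mean over all probes. With normexp correction 2 members were at least 2-fold lower in place of 4, and Cldn1, Cldn11, Krt18 and Spint2 lost the 2-fold difference. The other epithelial genes had a median of 0.0613 with quantile normalization, 0.0593 with median scaling and 0.52 with spike-in scaling, against 0.28, and 12 of them were lower with normexp correction in place of 19.

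In p53-null MEF against MEF the members counted 6 higher and 4 lower. With normexp correction 2 were higher. With spike-in scaling 17 were higher and 1 lower, with a median of 2.22. Without scaling the median was 0.56, against 0.24. Cldn1 stood at 0.73 with spike-in scaling, against -1.25. Of the other epithelial genes, 7 were higher and 16 lower. With normexp correction 5 were lower, and without scaling 12 were higher and 6 lower, with a median of -0.19. With spike-in scaling 31 were higher and 2 lower, with a median of 1.39, and the mean over probes gave -0.16, against -0.52. Of all labels past 2-fold, 52.8% were higher in p53-null MEF, 71.1% without scaling and 98.0% with spike-in scaling, which used 7 of 10 spike-in probes. In ES cells that share was 54.7%, and 61.1% with spike-in scaling. The authors' value table changed no member's side of the 2-fold threshold in either comparison. Normexp correction adds an offset of 50, which shrinks differences between faint signals by construction. Faint signals limit Cldn1, Cldn11, Tjp3 and Epcam in the fibroblasts.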
